A study of Mus musculus with 3 samples.

Results

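Pericytes are the mural cells of capillaries. They lie on the outside of the endothelial tube, share its basement membrane, and hold many of the ATP-sensitive potassium channels of the heart, built from the pore Kcnj8 and the sulfonylurea receptor subunit Abcc9. In the heart they are known for setting capillary tone and stability through PDGF receptor beta, Notch3 and endothelin receptors. Here a pericyte was a droplet barcode holding 500 UMIs (unique molecular identifiers, counted transcripts) and 300 genes or more, with no more than 50% of its UMIs mitochondrial, that also met a rule on marker UMIs. Kcnj8, Abcc9, Vtn and Colec11 summed to at least 4 UMIs, the smooth muscle genes Myh11 and Cnn1 to at most 1, the endothelial genes Pecam1 and Cdh5 and the leukocyte gene Ptprc to 0, and Col1a1 did not exceed 5. The rule found 1640 of the 61034 barcodes past the depth and mitochondrial filters, out of 96654 deposited. Since these genes chose the members, their levels are given as a description.

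The libraries are single-cell 3′ RNA-seq of left ventricles of C56Bl6 mice, 1 library per group, each from 4 pooled samples. HFpEF-FoxO1-sh mice had High-Fat food plus L-NAME, which blocks nitric oxide synthases, for 6 weeks and an adeno-associated virus (AAV) carrying a hairpin against FoxO1 for 4 weeks. HFpEF-scr mice had the same diet and times with a scramble hairpin. Control mice had standard food for 10 weeks and no vector is named for them, so diet and vector cannot be told apart between HFpEF-scr and Control. HFpEF is heart failure with preserved ejection fraction, which this diet models. The labels give neither the promoter nor the cells the vector reaches. Tissue was digested, passed through a 70 µm strainer that removes cardiomyocytes, cleared of debris and treated to lyse red cells. Pooling and 1 library per group leave no replicate: no p-value compares libraries, and intervals below cover counting error only (95%).

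The libraries held 20378 HFpEF-FoxO1-sh, 21247 HFpEF-scr and 19409 Control barcodes past the filters. Pairs of libraries shared 264 barcodes (HFpEF-FoxO1-sh with HFpEF-scr), 238 (HFpEF-FoxO1-sh with Control) and 335 (HFpEF-scr with Control) of those deposited, and 1 member barcode was shared, in the first pair. The doublet caller Scrublet marked 17 HFpEF-FoxO1-sh, 5 HFpEF-scr and 20 Control members, which were left in as the rule has no doublet step. Members had a median of 3011 UMIs in HFpEF-FoxO1-sh, 3255 in HFpEF-scr and 3428.5 in Control. The non-mitochondrial medians were 2401 in HFpEF-FoxO1-sh, 2304 in HFpEF-scr and 2515 in Control. Levels below are CPM, UMIs scaled in each library to the same non-mitochondrial total, because the mitochondrial share differed between libraries.

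Foxo1, the gene the hairpin targets, was low in pericytes. Its level was 41.6 CPM in HFpEF-FoxO1-sh (72 UMIs in 63 members), 39.2 CPM in HFpEF-scr (37 UMIs in 34 members) and 29.96 CPM in Control (60 UMIs in 54 members). The library labelled HFpEF-FoxO1-sh was therefore not below HFpEF-scr (ratio 1.06, 0.705 to 1.62), nor was HFpEF-scr distinguishable from Control by counting error (1.31, 0.844 to 2.00). Every statement on the library labelled HFpEF-FoxO1-sh below rests on its label.

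The label pericyte was checked with genes outside the rule. Rgs5, a regulator of G-protein signalling and the best known pericyte transcript, had a UMI in 577 of 615 HFpEF-FoxO1-sh members (93.8%), 292 of 325 HFpEF-scr members (89.8%) and 651 of 700 Control members (93.0%). Its level was 10320 CPM in HFpEF-FoxO1-sh, 9344 CPM in HFpEF-scr and 11760 CPM in Control. Smooth muscle barcodes, chosen by the mirror rule on Myh11 and Cnn1, held 2986 CPM in HFpEF-FoxO1-sh, 4140 CPM in HFpEF-scr and 3542 CPM in Control. Fibroblast barcodes (over 5 Col1a1 UMIs) held 24.7 CPM in HFpEF-FoxO1-sh, 19.9 CPM in HFpEF-scr and 26.5 CPM in Control. Of 30 pericyte markers that the rule did not use, 22 were higher in members than in smooth muscle barcodes in all 3 libraries. Against endothelial barcodes 28 were higher, against fibroblast barcodes 27 and against leukocyte barcodes 28. Lower in all 3 libraries were 5 against smooth muscle, 0 against endothelial, 1 against fibroblast and 1 against leukocyte barcodes.

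The members were not all alike. Some carried the fibroblast matrix gene Dcn at a median of 117 UMIs in HFpEF-FoxO1-sh (69 members over 5 Dcn UMIs), 114 in HFpEF-scr (61 members) and 94 in Control (76 members), and the median of Rgs5 in these was 0 UMIs in each library. Haemoglobin passed 5% of non-mitochondrial UMIs in 12 HFpEF-FoxO1-sh, 13 HFpEF-scr and 17 Control members. Cardiomyocyte transcripts passed 20 UMIs in 2 HFpEF-FoxO1-sh, 0 HFpEF-scr and 1 Control members. Leukocyte transcripts passed 5 UMIs in 12 HFpEF-FoxO1-sh, 10 HFpEF-scr and 14 Control members. A restricted set, chosen after these values were seen, left all of them out and held 525 HFpEF-FoxO1-sh, 245 HFpEF-scr and 598 Control members. In it Rgs5 had a UMI in 525 of 525 HFpEF-FoxO1-sh, 244 of 245 HFpEF-scr and 598 of 598 Control members. The members left out were 14.6% of HFpEF-FoxO1-sh, 24.6% of HFpEF-scr and 14.6% of Control members. They held 29.0% of the summed non-mitochondrial UMIs in HFpEF-FoxO1-sh, 43.5% in HFpEF-scr and 27.4% in Control. Their weight was thus largest in HFpEF-scr, and counts of genes below are given for all members and for the restricted set.

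In the restricted set the summed pericyte markers stood at similar levels in the 3 libraries, while single markers differed. Rgs5, the largest part of the sum, was at 13630 CPM in HFpEF-FoxO1-sh, 15080 CPM in HFpEF-scr and 15110 CPM in Control. P2ry14 was at 396 CPM in HFpEF-FoxO1-sh, 334 CPM in HFpEF-scr and 435 CPM in Control. Art3 was at 1384 CPM in HFpEF-FoxO1-sh, 1062 CPM in HFpEF-scr and 1265 CPM in Control. Both were lowest in HFpEF-scr, while Notch3, given below, was highest there. The 30 independent markers summed to 36982 CPM in HFpEF-FoxO1-sh, 37417 CPM in HFpEF-scr and 38849 CPM in Control, against 28465 CPM in HFpEF-FoxO1-sh, 23818 CPM in HFpEF-scr and 30952 CPM in Control over all members. Kcnj8 was at 3916 CPM in HFpEF-FoxO1-sh, 2923 CPM in HFpEF-scr and 3798 CPM in Control. Abcc9 was at 4089 CPM in HFpEF-FoxO1-sh, 3754 CPM in HFpEF-scr and 4419 CPM in Control. Among genes the rule did not use, the PDGF receptor Pdgfrb was at 2077 CPM in HFpEF-FoxO1-sh, 2007 CPM in HFpEF-scr and 2167 CPM in Control. Notch3, the mural Notch receptor, was at 949 CPM in HFpEF-FoxO1-sh, 1112 CPM in HFpEF-scr and 1012 CPM in Control. Of 2 mitochondrial proteins typical of pericytes, Ndufa4l2 was at 3122 CPM in HFpEF-FoxO1-sh, 2566 CPM in HFpEF-scr and 3026 CPM in Control, and Cox4i2 at 1957 CPM in HFpEF-FoxO1-sh, 1619 CPM in HFpEF-scr and 1990 CPM in Control. Of the soluble guanylate cyclase that nitric oxide activates, the subunit Gucy1a1 was at 844 CPM in HFpEF-FoxO1-sh, 931 CPM in HFpEF-scr and 923 CPM in Control, and Gucy1b1 at 937 CPM in HFpEF-FoxO1-sh, 1047 CPM in HFpEF-scr and 1113 CPM in Control.

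Pericytes made up a smaller share of the HFpEF-scr library than of the other two. They were 3.02% of HFpEF-FoxO1-sh barcodes (615, exact Clopper-Pearson interval 2.79% to 3.26%), 1.53% of HFpEF-scr barcodes (325, 1.37% to 1.70%) and 3.61% of Control barcodes (700, 3.35% to 3.88%). The ratio of shares was 0.424 for HFpEF-scr over Control (0.371 to 0.484) and 1.97 for HFpEF-FoxO1-sh over HFpEF-scr (1.72 to 2.26). In the restricted set these ratios were 0.374 (0.321 to 0.435) and 2.23 (1.92 to 2.61). Both ratios share the HFpEF-scr library.

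Other vascular cells of the same suspension give a second denominator. There were 42.7 pericytes per 100 endothelial barcodes in HFpEF-FoxO1-sh, 14.2 in HFpEF-scr and 30.1 in Control. Per 100 smooth muscle barcodes there were 214 in HFpEF-FoxO1-sh, 66.2 in HFpEF-scr and 138 in Control. Per 100 fibroblast barcodes there were 8.91 in HFpEF-FoxO1-sh, 5.22 in HFpEF-scr and 12.1 in Control. HFpEF-scr was lowest against each of these classes, and also against leukocytes (27.4 per 100 in HFpEF-FoxO1-sh, 11.1 in HFpEF-scr and 35.6 in Control). Fewer pericytes in the tissue, fewer released by digestion and fewer kept by the rule cannot be told apart.

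**Figure D1:**
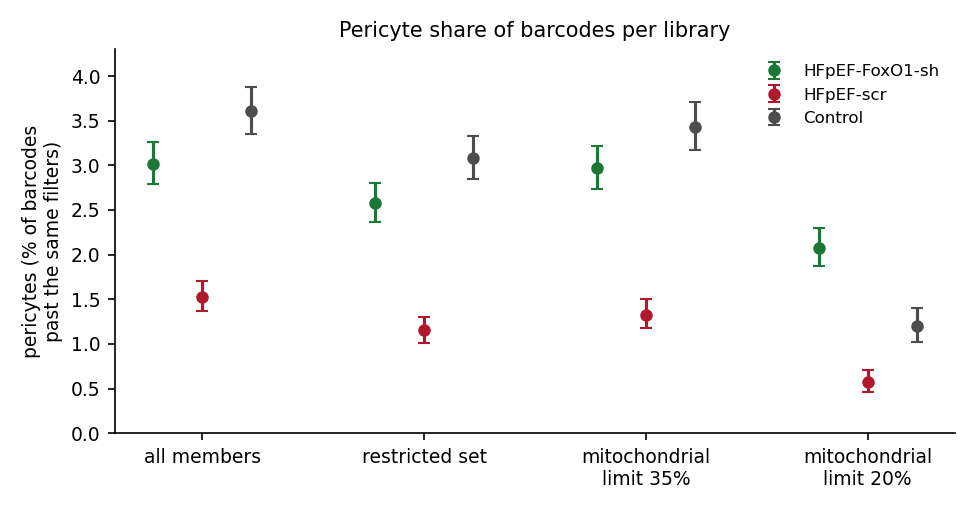
Pericytes as a percentage of barcodes past the same filters (y axis) in the HFpEF-FoxO1-sh, HFpEF-scr and Control libraries, for all members, the restricted set and members under tighter mitochondrial limits; points are shares and bars exact 95% counting intervals. HFpEF-scr is lowest under each limit, and HFpEF-FoxO1-sh moves above Control at the 20% limit.

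The rule's wide mitochondrial limit changed which library had the largest share. The median mitochondrial share of members was 18.4% in HFpEF-FoxO1-sh, 26.6% in HFpEF-scr and 25.4% in Control, and 41.3% of HFpEF-FoxO1-sh, 73.8% of HFpEF-scr and 77.9% of Control members lay above 20%. Of all barcodes past the filters 14.7% in HFpEF-FoxO1-sh, 29.8% in HFpEF-scr and 33.3% in Control did. Pericytes thus lay above that limit more often than the average barcode in each library, but this was not particular to them. The median share of endothelial barcodes was 20.4% in HFpEF-FoxO1-sh, 23.1% in HFpEF-scr and 26.2% in Control, above pericytes in HFpEF-FoxO1-sh and Control. Smooth muscle barcodes had medians of 17.6% in HFpEF-FoxO1-sh, 21.5% in HFpEF-scr and 21.8% in Control. A 20% limit would keep 361 of 615 HFpEF-FoxO1-sh, 85 of 325 HFpEF-scr and 155 of 700 Control members. Of the barcodes left, members were then 2.08% in HFpEF-FoxO1-sh, 0.570% in HFpEF-scr and 1.20% in Control. The ratios were 0.476 for HFpEF-scr over Control (0.361 to 0.624) and 3.64 for HFpEF-FoxO1-sh over HFpEF-scr (2.87 to 4.67). Of the members kept at 20%, 277 in HFpEF-FoxO1-sh, 25 in HFpEF-scr and 78 in Control were in the restricted set. Most HFpEF-scr members kept there were thus outside the restricted set. At 35% the members kept were 584 in HFpEF-FoxO1-sh, 264 in HFpEF-scr and 611 in Control.

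The medians kept their order in the restricted set, and the shares above 20% did not. Its median mitochondrial share was 19.5% in HFpEF-FoxO1-sh, 29.1% in HFpEF-scr and 26.7% in Control. At or below 20% were 277 of its 525 HFpEF-FoxO1-sh members, 25 of its 245 HFpEF-scr members and 78 of its 598 Control members. Above 20% were 248 HFpEF-FoxO1-sh, 220 HFpEF-scr and 520 Control members, so that HFpEF-scr had the largest share there, while Control had it over all members. The members with over 5 Dcn UMIs had lower shares, with medians of 9.74% in HFpEF-FoxO1-sh, 13.7% in HFpEF-scr and 13.3% in Control. The cut of a continuous share is a range and not a cell state: 132 HFpEF-FoxO1-sh, 32 HFpEF-scr and 110 Control members of the restricted set lay between 18% and 22%.

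**Figure D2:**
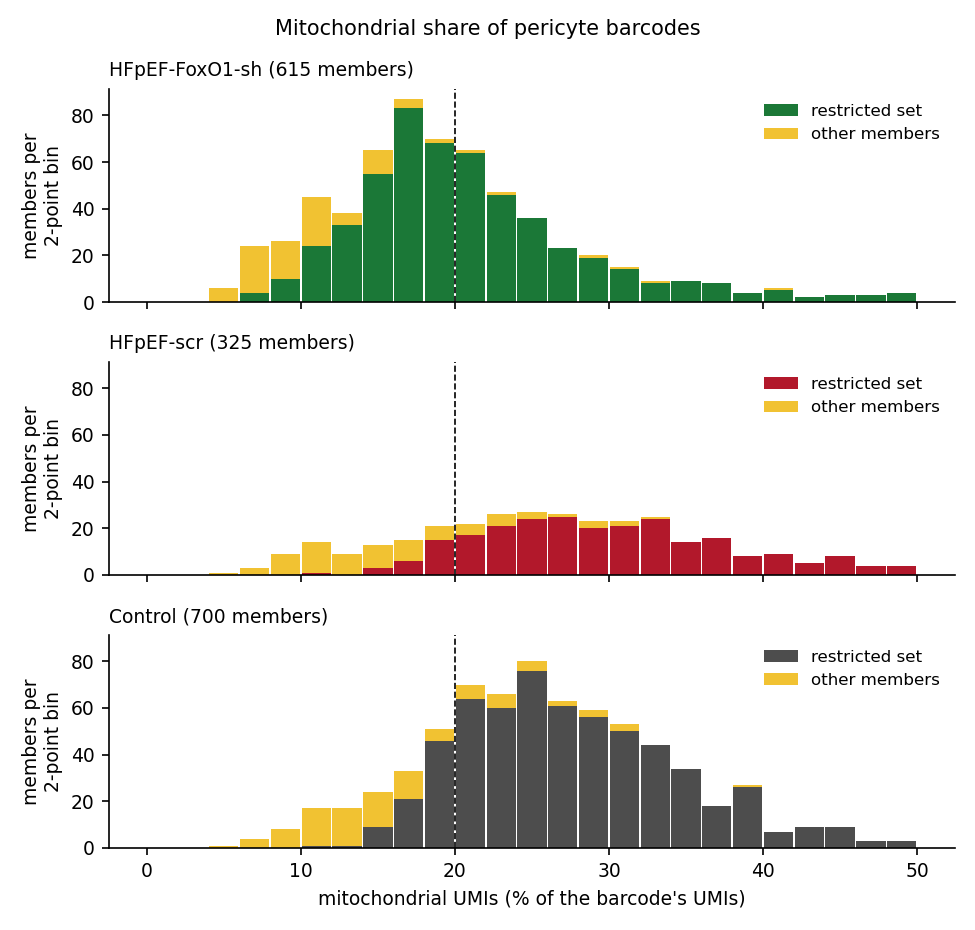
Members per 2-point bin (y axis) of the mitochondrial percentage of a barcode's UMIs (x axis), a panel per library; dark bars are the restricted set, yellow bars the other members, the dashed line 20%. In HFpEF-scr and Control most of the restricted set lies right of the line, and the other members gather left of it.

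Whether pericytes above and below 20% differ in their nuclear genes was tested within libraries, with the library as the replicate (edgeR's quasi-likelihood test on summed UMIs, library as a block, Benjamini-Hochberg adjustment over 7871 genes). Over all members 375 genes (4.76%) were higher and 747 (9.49%) lower above 20%. Without the Control library 118 were higher and 374 lower, and DESeq2 gave 97 higher and 408 lower. Of 27 independent pericyte markers tested, 22 rose and 0 fell, with a median log2 fold change of 0.85 against 0.01 over all genes. Rgs5 rose by 1.00 (adjusted p = 0.00209), with 13705 against 9032 CPM in HFpEF-FoxO1-sh, 13829 against 4065 CPM in HFpEF-scr and 14612 against 6744 CPM in Control, the range above 20% first. Of 19 fibroblast markers 16 fell and 0 rose (median -3.50), as did 36 of 42 ribosomal protein genes (-0.57), 18 of 21 immediate early genes (-1.61) and 19 of 28 interstitial matrix genes (-1.09). By contrast 7 of 8 cardiomyocyte genes rose. A single barcode held 52.3% of the cardiomyocyte UMIs in HFpEF-FoxO1-sh, and another 32.9% in Control. These barcodes lay above the cut, at 32.8% mitochondrial UMIs in HFpEF-FoxO1-sh and 30.8% in Control. The top HFpEF-scr barcode held 1.42%.

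These differences moved with the members left out of the restricted set. Within the restricted set the same fit over 6870 genes gave 4 genes higher (0.0582%) and 0 lower (0.0%), with 410 genes at an unadjusted p under 0.05 and 1 gene called by DESeq2. All members had 1922 genes at that unadjusted p. Of the independent markers 0 of 27 were called, with a median log2 fold change of 0.07 and Rgs5 at 0.07. Rgs5 was at 14013 against 13396 CPM in HFpEF-FoxO1-sh, 15066 against 15134 CPM in HFpEF-scr and 15256 against 14432 CPM in Control, above 20% first. Of 42 ribosomal protein genes and 19 immediate early genes 0 were called. The 4 higher genes were Fabp4 (log2 0.44) and Cd36 (0.92), which carry and take up fatty acids, the extracellular peroxidase Gpx3 (1.29) and Gm42418 (0.47), a locus known to collect ribosomal RNA reads.

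**Figure D3:**
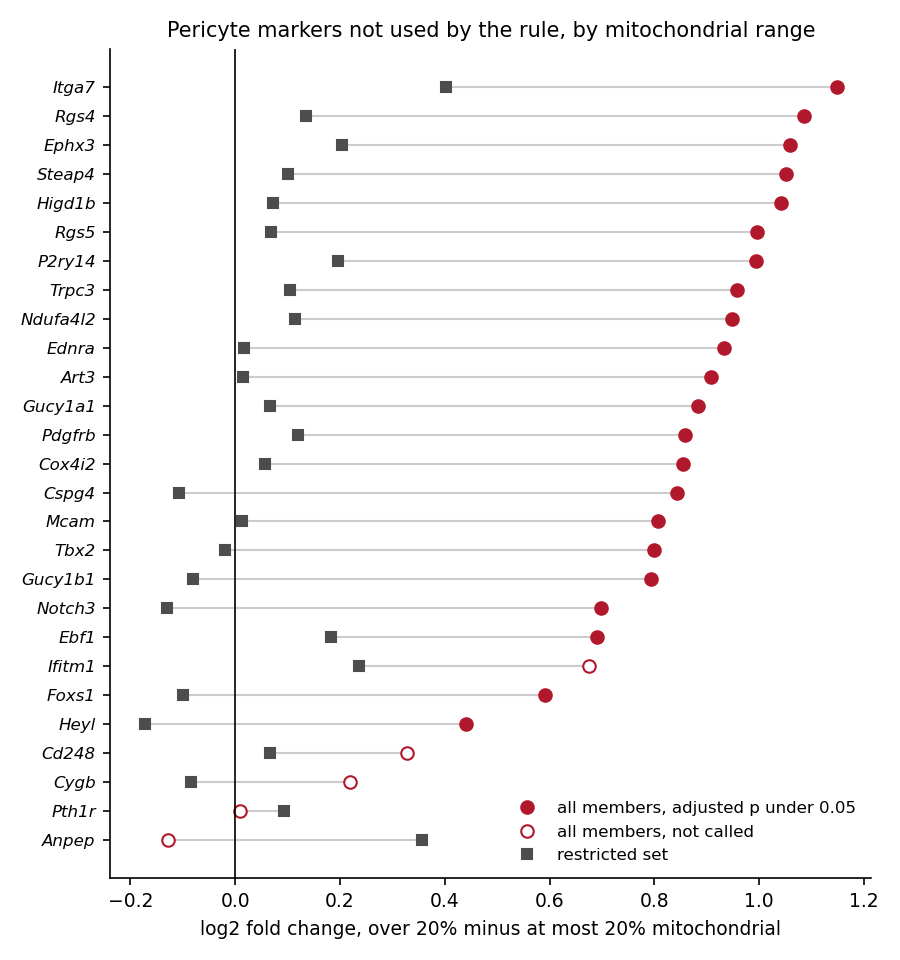
Log2 fold change above 20% against at or below 20% mitochondrial UMIs (x axis) for the 27 tested pericyte markers that the rule did not use; circles are all members (filled where the edgeR adjusted p is under 0.05), squares the restricted set. Of the circles 22 are filled and right of 0, while the squares lie between -0.17 (Heyl) and 0.40 (Itga7).

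For library comparisons a gene was called when its ratio was at least 1.5 in either direction with a counting interval excluding 1, among genes with at least 20 UMIs over both libraries. HFpEF-scr against Control gave 423 higher (4.22%) and 474 lower (4.73%) of 10025 genes over all members. In the restricted set it gave 239 higher (2.67%) and 255 lower (2.85%) of 8940. HFpEF-FoxO1-sh against HFpEF-scr gave 395 higher (4.02%) and 410 lower (4.17%) of 9834, and in the restricted set 235 higher (2.71%) and 252 lower (2.9%) of 8681. Both comparisons contain the HFpEF-scr library, so a gene high or low there moves in opposite directions in the 2 ratios. The percentages above are the background for the list counts below. In the restricted set the median log2 ratio over all genes was -0.04 for HFpEF-scr over Control and 0.02 for HFpEF-FoxO1-sh over HFpEF-scr. The gene values that follow are from the restricted set unless all members are named.

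Contractile genes were higher in HFpEF-scr pericytes. Of 21 measured members of the smooth muscle contractile list, 6 were higher and 0 lower in HFpEF-scr than in Control (median log2 ratio 0.33, against -0.04 over all genes), and 0 were higher and 7 lower in HFpEF-FoxO1-sh than in HFpEF-scr (median -0.31, against 0.02). Over all members the counts were 4 higher and 2 lower of 22, and 1 higher and 5 lower of 22. Smooth muscle actin Acta2 stood at 93.7 CPM in HFpEF-FoxO1-sh, 439 CPM in HFpEF-scr and 182 CPM in Control. Its ratio was 2.42 for HFpEF-scr over Control (2.02 to 2.89) and 0.213 for HFpEF-FoxO1-sh over HFpEF-scr (0.169 to 0.268). The actin-binding Tagln was at 81.4 CPM in HFpEF-FoxO1-sh, 587 CPM in HFpEF-scr and 181 CPM in Control (HFpEF-scr over Control 3.25, 2.75 to 3.84; HFpEF-FoxO1-sh over HFpEF-scr 0.139, 0.110 to 0.174).

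Few members carried these transcripts. Acta2 had a UMI in 29 of 525 HFpEF-FoxO1-sh, 41 of 245 HFpEF-scr and 34 of 598 Control members, and the top 5 barcodes held 57.4% of its UMIs in HFpEF-FoxO1-sh, 34.2% in HFpEF-scr and 60.2% in Control. Each barcode was thinned to 1000 non-mitochondrial UMIs, which left out 30 HFpEF-FoxO1-sh, 14 HFpEF-scr and 14 Control members. Acta2 was found in 2.83% of HFpEF-FoxO1-sh, 13.0% of HFpEF-scr and 3.94% of Control members, against 0.582% of HFpEF-FoxO1-sh, 1.42% of HFpEF-scr and 1.02% of Control leukocyte barcodes thinned in the same way, which should lack it. Tagln had a UMI in 29 HFpEF-FoxO1-sh, 37 HFpEF-scr and 24 Control members. After thinning it was found in 3.64% of HFpEF-FoxO1-sh, 12.6% of HFpEF-scr and 2.91% of Control thinned members, so for both genes the HFpEF-scr members with a UMI were more frequent. The smooth muscle class held Acta2 at 21371 CPM in HFpEF-FoxO1-sh, 18813 CPM in HFpEF-scr and 20424 CPM in Control, with no call between libraries. Myh11, which the rule capped, was at 28.5 CPM in HFpEF-FoxO1-sh, 30.02 CPM in HFpEF-scr and 26.1 CPM in Control members. It had its single permitted UMI, or Cnn1 did, in 6.86% of HFpEF-FoxO1-sh, 6.53% of HFpEF-scr and 6.35% of Control members. The 26 genes of the list summed to 7468 CPM in HFpEF-FoxO1-sh, 9671 CPM in HFpEF-scr and 7858 CPM in Control members, against 90117 CPM in HFpEF-FoxO1-sh, 82589 CPM in HFpEF-scr and 87197 CPM in Control smooth muscle barcodes. The part of smooth muscle RNA in these values was not tested.

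Myl9, Lmod1, Rcan2, Synpo2 and Tpm1 were also at their highest in HFpEF-scr. The myosin light chain Myl9 was at 258 CPM in HFpEF-FoxO1-sh, 542 CPM in HFpEF-scr and 260 CPM in Control, and had a UMI in 167 HFpEF-FoxO1-sh, 100 HFpEF-scr and 193 Control members. Its ratio was 2.09 for HFpEF-scr over Control (1.78 to 2.44) and 0.476 for HFpEF-FoxO1-sh over HFpEF-scr (0.405 to 0.560). Leiomodin Lmod1, which nucleates actin filaments, was at 17.1 CPM in HFpEF-FoxO1-sh, 48.8 CPM in HFpEF-scr and 15.8 CPM in Control (HFpEF-scr over Control 3.08, 1.69 to 5.66; HFpEF-FoxO1-sh over HFpEF-scr 0.351, 0.188 to 0.648). It had a UMI in 16 HFpEF-FoxO1-sh, 18 HFpEF-scr and 19 Control members, and over all members its second ratio turned to a log2 of 0.29 under the 20% mitochondrial limit. In the restricted set at or below 20% that ratio was 0.803 (0.184 to 7.28), on 2 HFpEF-scr UMIs. The calcineurin regulator Rcan2 was at 23.6 CPM in HFpEF-FoxO1-sh, 43.2 CPM in HFpEF-scr and 21.3 CPM in Control. Synpo2, an actin-bundling protein, was at 41.5 CPM in HFpEF-FoxO1-sh, 73.2 CPM in HFpEF-scr and 47.5 CPM in Control. Tropomyosin Tpm1, at 345 CPM in HFpEF-FoxO1-sh, 533 CPM in HFpEF-scr and 400 CPM in Control, was called only in HFpEF-FoxO1-sh against HFpEF-scr (0.647, 0.555 to 0.754). Over all members Synpo2 and Rcan2 were not called in HFpEF-scr against Control, and Rcan2 and Tpm1 were not called in HFpEF-FoxO1-sh against HFpEF-scr, where Tpm1 had a ratio of 1.19. Outside the list, the muscle gene Mustn1 was at 19.5 CPM in HFpEF-FoxO1-sh, 63.8 CPM in HFpEF-scr and 19.9 CPM in Control (HFpEF-scr over Control 3.20, 1.89 to 5.44; HFpEF-FoxO1-sh over HFpEF-scr 0.306, 0.174 to 0.532).

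The Acta2 difference was present on both sides of 20% mitochondrial UMIs. Above it the ratio was 2.59 for HFpEF-scr over Control and 0.342 for HFpEF-FoxO1-sh over HFpEF-scr, and at or below it the same ratios were 1.89 and 0.132, where HFpEF-scr had 25 members. For Myl9 the ratio of HFpEF-scr over Control was 1.92 above 20% and 3.24 at or below it. Between HFpEF-FoxO1-sh and HFpEF-scr it was 0.550 above 20% and 0.391 at or below it.

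The promoter of Myl9 is printed because Myl9 is the called contractile gene whose promoter holds a CArG box, the motif bound by serum response factor. RefSeq promoters of GRCm38.p6 (mm10), 250 bases before to 50 after the start, were searched on both strands. The motif was in 4 of the 22 contractile genes with a promoter in the table (18.2%; Myl9, Vcl, Myl6 and Cnn2), against 1.81% of 27025 genes. Tagln was not in the table. The stretch is chr2:156775293-156775412, plus strand, from base -171 to -52 of the start, with the motif in capitals. The match is a description of the sequence and says nothing of binding in these cells.
Myl9: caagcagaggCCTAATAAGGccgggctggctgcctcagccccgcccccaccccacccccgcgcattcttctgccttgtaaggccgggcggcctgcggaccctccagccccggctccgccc

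The endothelin B receptor Ednrb was lower in HFpEF-scr pericytes. It was at 250 CPM in HFpEF-FoxO1-sh, 109 CPM in HFpEF-scr and 215 CPM in Control, and had a UMI in 176 HFpEF-FoxO1-sh, 41 HFpEF-scr and 184 Control members. Its ratios were 0.506 (0.375 to 0.671) for HFpEF-scr over Control and 2.30 (1.73 to 3.10) for HFpEF-FoxO1-sh over HFpEF-scr. The endothelin A receptor Ednra, the constrictor form, was at 334 CPM in HFpEF-FoxO1-sh, 418 CPM in HFpEF-scr and 334 CPM in Control and was not called (HFpEF-scr over Control 1.25, 1.07 to 1.47; HFpEF-FoxO1-sh over HFpEF-scr 0.798, 0.676 to 0.944). Of 12 measured vasoactive receptors, 0 were higher and 2 lower in HFpEF-scr than in Control, Ednrb and Pth1r, and both were higher in HFpEF-FoxO1-sh than in HFpEF-scr, with 0 lower. The median log2 ratio of the list ran the other way, at 0.09 for HFpEF-scr over Control and -0.12 for HFpEF-FoxO1-sh over HFpEF-scr. Over all members 2 were higher and 2 lower of 15 in HFpEF-scr against Control (median 0.01), and 2 higher and 2 lower of 16 in HFpEF-FoxO1-sh against HFpEF-scr (-0.01).

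Ednrb was also measured in other classes. It was at 6.53 CPM in HFpEF-FoxO1-sh, 2.62 CPM in HFpEF-scr and 1.04 CPM in Control smooth muscle barcodes. In endothelial barcodes it was at 218 CPM in HFpEF-FoxO1-sh, 239 CPM in HFpEF-scr and 225 CPM in Control. After thinning, Ednrb was found in 18.2% of HFpEF-FoxO1-sh, 8.66% of HFpEF-scr and 15.1% of Control members. Leukocyte barcodes held Ednrb in 5.42% in HFpEF-FoxO1-sh, 2.46% in HFpEF-scr and 3.57% in Control and were lowest in HFpEF-scr as well.

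Further receptors rested on fewer UMIs. The PACAP receptor Adcyap1r1 was at 35.02 CPM in HFpEF-FoxO1-sh, 13.1 CPM in HFpEF-scr and 42.6 CPM in Control (HFpEF-scr over Control 0.308, 0.119 to 0.673; HFpEF-FoxO1-sh over HFpEF-scr 2.67, 1.19 to 7.03). Pth1r was at 92.8 CPM in HFpEF-FoxO1-sh, 56.3 CPM in HFpEF-scr and 88.0 CPM in Control (HFpEF-scr over Control 0.639, 0.415 to 0.958; HFpEF-FoxO1-sh over HFpEF-scr 1.65, 1.10 to 2.56). The natriuretic peptide clearance receptor Npr3 had a UMI in 20 HFpEF-FoxO1-sh, 2 HFpEF-scr and 37 Control members. The cyclooxygenase Ptgs1 had a UMI in 21 HFpEF-FoxO1-sh, 1 HFpEF-scr and 22 Control members. HFpEF-scr was again lowest for each. Over all members Ednrb and Adcyap1r1 were called in both comparisons as well, with HFpEF-scr over Control at 0.388 for Ednrb and 0.340 for Adcyap1r1, and Pth1r in neither. At or below 20% mitochondrial UMIs the ratio of Ednrb was 0.179 for HFpEF-scr over Control and 6.05 for HFpEF-FoxO1-sh over HFpEF-scr, on 4 UMIs in HFpEF-scr, and above it 0.587 for HFpEF-scr over Control and 1.73 for HFpEF-FoxO1-sh over HFpEF-scr.

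Cholesterol genes were lower in HFpEF-scr pericytes. Of 23 measured genes of the cholesterol list, 2 were higher and 6 lower than in Control, with a median log2 ratio of -0.61 against -0.04 over all genes. Of 24 measured in HFpEF-FoxO1-sh against HFpEF-scr, 4 were higher and 1 lower, with a median of 0.70 against 0.02. Over all members it was 3 higher and 10 lower of 26, and 5 higher and 0 lower of 25. HMG-CoA synthase Hmgcs1 was at 57.8 CPM in HFpEF-FoxO1-sh, 30.02 CPM in HFpEF-scr and 64.0 CPM in Control (HFpEF-scr over Control 0.469, 0.258 to 0.803; HFpEF-FoxO1-sh over HFpEF-scr 1.93, 1.11 to 3.55). The isomerase Idi1 was at 30.1 CPM in HFpEF-FoxO1-sh, 15.0 CPM in HFpEF-scr and 55.7 CPM in Control. Farnesyl diphosphate synthase Fdps was at 83.1 CPM in HFpEF-FoxO1-sh, 45.0 CPM in HFpEF-scr and 90.8 CPM in Control. In all of these HFpEF-scr was the lowest library. Over all members Hmgcs1 was not called in HFpEF-FoxO1-sh against HFpEF-scr (1.51, 0.994 to 2.36).

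Mevalonate kinase Mvk, at 28.5 CPM in HFpEF-FoxO1-sh, 13.1 CPM in HFpEF-scr and 35.1 CPM in Control, was lower than in Control. The sterol oxidase Msmo1, at 72.5 CPM in HFpEF-FoxO1-sh, 45.0 CPM in HFpEF-scr and 77.7 CPM in Control, was also lower than in Control. The cholesterol exporter Abcg1 was at 18.7 CPM in HFpEF-FoxO1-sh, 37.5 CPM in HFpEF-scr and 7.56 CPM in Control (HFpEF-scr over Control 4.96, 2.27 to 11.5; HFpEF-FoxO1-sh over HFpEF-scr 0.499, 0.262 to 0.958). Scap, which escorts the sterol-regulated transcription factors, was at 20.4 CPM in HFpEF-FoxO1-sh, 31.9 CPM in HFpEF-scr and 15.1 CPM in Control (HFpEF-scr over Control 2.11, 1.05 to 4.16). These 2 were the higher genes of the list. Smooth muscle barcodes had Hmgcs1 at 45.7 CPM in HFpEF-FoxO1-sh, 61.3 CPM in HFpEF-scr and 51.2 CPM in Control, with no call in either comparison.

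The promoter of Hmgcs1 is printed because it is the gene of the list that holds the sterol element TCACNCCAC in this window on either strand. It was 1 of 19 cholesterol genes with a promoter in the RefSeq table (5.26%), against 1.44% of 27025 genes. The stretch is chr13:119690204-119690323 (mm10), plus strand, from base -147 to -28, with the element in capitals.
Hmgcs1: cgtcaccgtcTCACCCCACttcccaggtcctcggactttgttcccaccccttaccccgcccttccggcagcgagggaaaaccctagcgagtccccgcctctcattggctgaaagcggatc

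Genes of fatty acid handling were higher in HFpEF-scr than in Control. Of 24 measured, 4 were higher and 0 lower (median log2 ratio 0.28), and over all members 6 were higher and 1 lower of 30. The fatty acid binding protein Fabp4 was at 2766 CPM in HFpEF-FoxO1-sh, 3846 CPM in HFpEF-scr and 1476 CPM in Control, a ratio of 2.60 for HFpEF-scr over Control (2.45 to 2.77). The transporter Cd36 was at 273 CPM in HFpEF-FoxO1-sh, 503 CPM in HFpEF-scr and 218 CPM in Control (HFpEF-scr over Control 2.31, 1.95 to 2.72). The mitochondrial acyl transferase Cpt1a was at 60.3 CPM in HFpEF-FoxO1-sh, 78.8 CPM in HFpEF-scr and 33.7 CPM in Control (HFpEF-scr over Control 2.34, 1.51 to 3.60). Angptl4, a secreted inhibitor of lipoprotein lipase, was at 64.3 CPM in HFpEF-FoxO1-sh, 39.4 CPM in HFpEF-scr and 11.0 CPM in Control, and had a UMI in 63 HFpEF-FoxO1-sh, 19 HFpEF-scr and 16 Control members (HFpEF-scr over Control 3.58, 1.78 to 7.34).

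In HFpEF-FoxO1-sh against HFpEF-scr only Cd36 of the 22 measured genes was called in the restricted set, and it was lower (0.543, 0.461 to 0.640). It was not called over all members (0.675, 0.579 to 0.787). Within the restricted set it was 0.766 (0.628 to 0.932) above 20% mitochondrial UMIs, where 220 of the 245 HFpEF-scr members lay and where it was not called, and 0.534 at or below 20%. Cd36 was among the genes higher above 20%. Fabp4 had a ratio of 0.719 (0.681 to 0.760), short of the fold required. Angptl4 was 1.63 (0.999 to 2.78) and called higher over all members (1.62, 1.13 to 2.37). Fabp4 and Cd36 are also capillary endothelial genes. Endothelial barcodes held Fabp4 at 21652 CPM in HFpEF-FoxO1-sh, 25786 CPM in HFpEF-scr and 19007 CPM in Control, against 22.3 CPM in HFpEF-FoxO1-sh, 31.6 CPM in HFpEF-scr and 24.9 CPM in Control fibroblast barcodes. The 13 other genes of the endothelial list with at least 20 UMIs over all members and libraries were summed in the restricted set. They reached 995 CPM in HFpEF-FoxO1-sh, 949 CPM in HFpEF-scr and 981 CPM in Control pericytes. In that set only 7 genes of the list, Fabp4 and Cd36 included, were measured in each comparison. Of these 7, 3 were higher and 0 lower in HFpEF-scr than in Control (median log2 ratio 0.49), Fabp4 and Cd36 among them. In HFpEF-FoxO1-sh against HFpEF-scr 0 were higher and 2 lower (-0.34), Cd36 among them. The part of endothelial RNA in the Fabp4 and Cd36 values was not tested.

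Clock genes differed between HFpEF-scr and Control. Of 23 measured genes of the glucocorticoid and circadian list, 5 were higher and 2 lower in HFpEF-scr than in Control (median log2 ratio 0.08), and 1 higher and 2 lower in HFpEF-FoxO1-sh than in HFpEF-scr (-0.15). The clock output factor Dbp was at 209 CPM in HFpEF-FoxO1-sh, 210 CPM in HFpEF-scr and 83.9 CPM in Control (HFpEF-scr over Control 2.50, 1.92 to 3.26; HFpEF-FoxO1-sh over HFpEF-scr 0.996, 0.795 to 1.26). Its relative Hlf was at 103 CPM in HFpEF-FoxO1-sh, 159 CPM in HFpEF-scr and 68.8 CPM in Control (HFpEF-scr over Control 2.32, 1.72 to 3.13; HFpEF-FoxO1-sh over HFpEF-scr 0.644, 0.485 to 0.858). The repressor Nr1d2 was at 125 CPM in HFpEF-FoxO1-sh, 165 CPM in HFpEF-scr and 86.0 CPM in Control (HFpEF-scr over Control 1.92, 1.45 to 2.54). Per3 (21.2 CPM in HFpEF-FoxO1-sh, 39.4 CPM in HFpEF-scr and 15.1 CPM in Control) and another repressor, Bhlhe40 (21.99 CPM in HFpEF-FoxO1-sh, 39.4 CPM in HFpEF-scr and 14.4 CPM in Control) were the others higher than in Control.

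The activator Arntl, which cycles in opposite phase to Dbp, had less RNA in HFpEF-scr, at 21.99 CPM in HFpEF-FoxO1-sh, 16.9 CPM in HFpEF-scr and 44.0 CPM in Control (HFpEF-scr over Control 0.384, 0.168 to 0.775). The glucocorticoid-induced Zbtb16 was at 26.1 CPM in HFpEF-FoxO1-sh, 24.4 CPM in HFpEF-scr and 46.8 CPM in Control (HFpEF-scr over Control 0.522, 0.264 to 0.953). Fkbp5, another such gene, was at 41.5 CPM in HFpEF-FoxO1-sh, 18.8 CPM in HFpEF-scr and 25.4 CPM in Control, higher in HFpEF-FoxO1-sh than in HFpEF-scr (2.21, 1.11 to 4.89). Dbp was 2.44 above and 2.84 at or below 20% mitochondrial UMIs for HFpEF-scr over Control. Dbp was also lowest in Control in other classes, at 41.9 CPM in HFpEF-FoxO1-sh, 49.7 CPM in HFpEF-scr and 31.5 CPM in Control smooth muscle barcodes. It was at 40.0 CPM in HFpEF-FoxO1-sh, 47.6 CPM in HFpEF-scr and 24.1 CPM in Control fibroblast barcodes, and at 67.9 CPM in HFpEF-FoxO1-sh, 47.9 CPM in HFpEF-scr and 35.3 CPM in Control endothelial barcodes. An E-box, CACGTG, the motif of clock activators, was in the promoters of 6 of 19 genes of the list found in the RefSeq table (31.6%; Fkbp5, Per1, Tef, Cry1, Ciart and Sgk1), against 8.09% of 27025 genes. Of these 6, 0 were called in the restricted set in HFpEF-scr against Control, and Fkbp5 (higher) and Per1 (lower) were called in HFpEF-FoxO1-sh against HFpEF-scr. The labels give no hour of collection, and its part in these values was not tested.

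Some interstitial matrix genes were higher in HFpEF-scr pericytes. Of 22 measured, 4 were higher and 0 lower in HFpEF-scr than in Control (median log2 ratio 0.37), and 0 higher and 7 lower in HFpEF-FoxO1-sh than in HFpEF-scr (-0.34). The metalloproteinase inhibitor Timp3 was at 540 CPM in HFpEF-FoxO1-sh, 917 CPM in HFpEF-scr and 493 CPM in Control (HFpEF-scr over Control 1.86, 1.66 to 2.09; HFpEF-FoxO1-sh over HFpEF-scr 0.589, 0.523 to 0.663). For HFpEF-FoxO1-sh over HFpEF-scr Timp3 was 0.770 (0.656 to 0.904) above 20% mitochondrial UMIs, short of the fold required. At or below 20% it was 0.322, where 25 HFpEF-scr members held 137 of the 489 Timp3 UMIs of that library. Collagen VI chain Col6a3 was at 66.8 CPM in HFpEF-FoxO1-sh, 109 CPM in HFpEF-scr and 66.7 CPM in Control. Elastin Eln was at 13.8 CPM in HFpEF-FoxO1-sh, 37.5 CPM in HFpEF-scr and 15.1 CPM in Control, and Timp2 at 21.99 CPM in HFpEF-FoxO1-sh, 65.7 CPM in HFpEF-scr and 35.8 CPM in Control. Over all members Eln was called in neither comparison and Col6a3 not in HFpEF-FoxO1-sh against HFpEF-scr. The fibroblast list of 20 summed to 2743 CPM in HFpEF-FoxO1-sh, 3760 CPM in HFpEF-scr and 2701 CPM in Control pericytes. Any genes it shares with the matrix list were not taken out, so it cannot be read as a separate measure. Col1a1 had a UMI in 17.1% of HFpEF-FoxO1-sh, 22.04% of HFpEF-scr and 15.9% of Control members. The part of fibroblast RNA in the matrix values was not tested.

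Of 15 measured inflammatory genes, 3 were higher and 1 lower in HFpEF-scr than in Control (median log2 ratio 0.31), and 1 higher and 5 lower in HFpEF-FoxO1-sh than in HFpEF-scr (-0.32). The macrophage growth factor Csf1 was at 26.9 CPM in HFpEF-FoxO1-sh, 52.5 CPM in HFpEF-scr and 25.4 CPM in Control (HFpEF-scr over Control 2.06, 1.22 to 3.47; HFpEF-FoxO1-sh over HFpEF-scr 0.512, 0.300 to 0.879). The chemokine Cxcl1 was at 36.7 CPM in HFpEF-FoxO1-sh, 65.7 CPM in HFpEF-scr and 35.1 CPM in Control, with a ratio of 0.558 for HFpEF-FoxO1-sh over HFpEF-scr, but 1.20 over all members. The eotaxin Ccl11 was at 55.4 CPM in HFpEF-FoxO1-sh, 148 CPM in HFpEF-scr and 39.9 CPM in Control, and had a UMI in 19 HFpEF-FoxO1-sh, 18 HFpEF-scr and 14 Control members. Under the 20% mitochondrial limit its log2 ratio for HFpEF-scr over Control over all members reversed to -0.26. In the restricted set at or below 20% the ratio of Ccl11 did not reverse. It was 8.61 there (3.72 to 22.3), on 23 HFpEF-scr and 8 Control UMIs. The adhesion molecule Vcam1, at 18.7 CPM in HFpEF-FoxO1-sh, 41.3 CPM in HFpEF-scr and 23.4 CPM in Control, was lower in HFpEF-FoxO1-sh than in HFpEF-scr (0.454, 0.242 to 0.854). Of the TGF-beta and BMP list 2 were higher and 1 lower of 27 in HFpEF-scr than in Control (median log2 ratio 0.07), and 0 higher and 2 lower of 26 in HFpEF-FoxO1-sh than in HFpEF-scr (-0.08). The lower gene was the ligand Tgfb2, at 59.5 CPM in HFpEF-FoxO1-sh, 45.0 CPM in HFpEF-scr and 70.8 CPM in Control (HFpEF-scr over Control 0.636, 0.390 to 0.999), which was not called over all members. The higher genes were Bmp2 and Id4. The ligand Bmp2 was at 8.14 CPM in HFpEF-FoxO1-sh, 22.5 CPM in HFpEF-scr and 6.88 CPM in Control. The BMP target Id4 was at 8.96 CPM in HFpEF-FoxO1-sh, 39.4 CPM in HFpEF-scr and 12.4 CPM in Control, and had a UMI in 10 HFpEF-FoxO1-sh, 14 HFpEF-scr and 12 Control members. In members with Col1a1 of 0 its log2 ratio for HFpEF-FoxO1-sh over HFpEF-scr reversed to 0.77. Angpt2, which destabilises capillaries, was at 15.5 CPM in HFpEF-FoxO1-sh, 37.5 CPM in HFpEF-scr and 20.6 CPM in Control and lower in HFpEF-FoxO1-sh than in HFpEF-scr (0.412, 0.208 to 0.814).

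The largest ratios over all genes, under the naming rule, were in genes of modest level. Higher in HFpEF-scr than in Control were Hsd11b1, which regenerates active glucocorticoid (52.9 CPM in HFpEF-FoxO1-sh, 113 CPM in HFpEF-scr and 33.0 CPM in Control; 3.41, 2.29 to 5.09), and the phospholipid transfer protein Pltp (61.9 CPM in HFpEF-FoxO1-sh, 133 CPM in HFpEF-scr and 44.7 CPM in Control; 2.98, 2.10 to 4.24). So were the junction protein Amotl2 (42.4 CPM in HFpEF-FoxO1-sh, 65.7 CPM in HFpEF-scr and 22.7 CPM in Control) and a glycosyltransferase, A4galt (31.0 CPM in HFpEF-FoxO1-sh, 48.8 CPM in HFpEF-scr and 17.2 CPM in Control). Over all members Hsd11b1 was not called (1.38). Pir, an iron-binding nuclear protein, was lower (31.8 CPM in HFpEF-FoxO1-sh, 3.75 CPM in HFpEF-scr and 37.1 CPM in Control) and had a UMI in 38 HFpEF-FoxO1-sh, 2 HFpEF-scr and 51 Control members. Also lower were the RNA nuclease Lactb2 (44.8 CPM in HFpEF-FoxO1-sh, 11.3 CPM in HFpEF-scr and 42.6 CPM in Control) and a ribosome biogenesis factor, Mphosph10 (35.8 CPM in HFpEF-FoxO1-sh, 13.1 CPM in HFpEF-scr and 52.3 CPM in Control). Spermine oxidase Smox was higher in HFpEF-FoxO1-sh than in HFpEF-scr at 75.7 CPM in HFpEF-FoxO1-sh, 28.1 CPM in HFpEF-scr and 48.1 CPM in Control (2.69, 1.55 to 5.00). So were the scaffold Mpp2 (60.3 CPM in HFpEF-FoxO1-sh, 22.5 CPM in HFpEF-scr and 58.5 CPM in Control) and actin-binding Twf2 (50.5 CPM in HFpEF-FoxO1-sh, 18.8 CPM in HFpEF-scr and 45.4 CPM in Control). The small heat shock protein Cryab (18.7 CPM in HFpEF-FoxO1-sh, 76.9 CPM in HFpEF-scr and 37.8 CPM in Control) and caveolar Cav1 (25.2 CPM in HFpEF-FoxO1-sh, 75.0 CPM in HFpEF-scr and 46.8 CPM in Control) were lower in HFpEF-FoxO1-sh than in HFpEF-scr, Cryab not so over all members (0.869). Lactb2 was called in neither comparison over all members. HFpEF-scr held the highest or the lowest value of each of these genes.

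Several calls did not hold among restricted members above 20% mitochondrial UMIs, which have fewer UMIs. For HFpEF-FoxO1-sh over HFpEF-scr the ratio of Synpo2, Cd36, Fdps, Hmgcs1, Hlf, Timp3, Col6a3, Eln, Csf1, Ccl11, Bmp2 and Cav1 fell short of the required fold there. Its interval included 1 for Rcan2, Adcyap1r1, Msmo1, Vcam1, Angpt2 and Mphosph10. Among the nearest to 1 were Csf1, at 0.845 (0.440 to 1.61), and Eln, at 0.763 (0.314 to 1.81). For HFpEF-scr over Control the calls of Synpo2, Pth1r, Hmgcs1, Cxcl1, Bmp2, Tgfb2 and Cav1 were not made there.

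**Figure D4:**
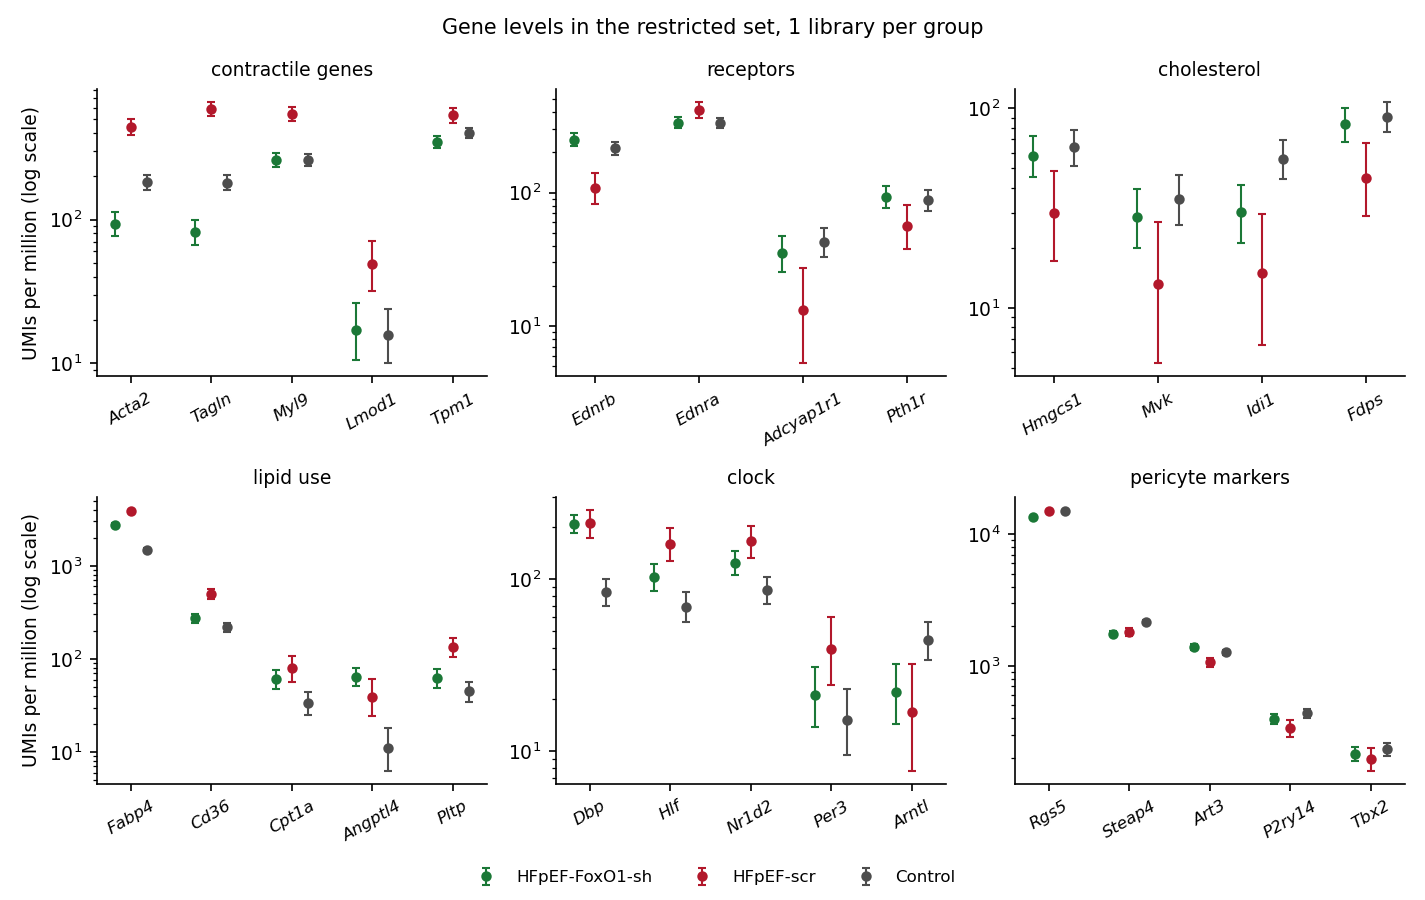
Levels in the restricted set (CPM over non-mitochondrial UMIs, log scale) of 28 genes in 6 groups, for HFpEF-FoxO1-sh (green), HFpEF-scr (red) and Control (grey), 1 library each; bars are exact 95% Poisson intervals for counting error. Contractile genes are highest in HFpEF-scr and the listed cholesterol genes lowest there, while the pericyte marker Rgs5 stays between 13626 and 15106 CPM.

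Some of the largest ratios over all members were absent from the restricted set. The Wnt inhibitor Wif1 was at 120 CPM in HFpEF-FoxO1-sh, 422 CPM in HFpEF-scr and 68.4 CPM in Control over all members, but in the restricted set it had 0 UMIs in HFpEF-FoxO1-sh and HFpEF-scr and 1 in Control. Cyp2e1 (65.3 CPM in HFpEF-FoxO1-sh, 191 CPM in HFpEF-scr and 27.0 CPM in Control) had 0 there in each library, and the proteoglycan Vcan (108 CPM in HFpEF-FoxO1-sh, 356 CPM in HFpEF-scr and 82.4 CPM in Control) had at most 3. With Col1a1 of 0 the log2 ratio of Vcan for HFpEF-FoxO1-sh over HFpEF-scr reversed to 0.23. The chemokine Cxcl2 was at 1.73 CPM in HFpEF-FoxO1-sh, 46.6 CPM in HFpEF-scr and 2.996 CPM in Control over all members, and 39 of its 44 UMIs in HFpEF-scr came from 1 barcode. Immediate early genes, such as Fos, were 5 higher and 0 lower of 27 in HFpEF-scr against Control over all members, and 0 higher and 4 lower of 20 in the restricted set. Of 15 cardiomyocyte genes 14 were higher in HFpEF-FoxO1-sh than in HFpEF-scr over all members, where a single HFpEF-FoxO1-sh barcode held 1916 cardiomyocyte UMIs. The restricted set was chosen by a limit on the UMIs of that list, so its genes were not counted as measured there. They summed to 1142.6 CPM in HFpEF-FoxO1-sh, 1142.5 CPM in HFpEF-scr and 1161.5 CPM in Control members of that set.

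The list of nuclear oxidative phosphorylation genes showed little of the library differences in mitochondrial share. Of 48 measured in the restricted set, 1 was higher and 0 lower in HFpEF-scr than in Control (median log2 ratio 0.04), and 0 were higher and 1 lower in HFpEF-FoxO1-sh than in HFpEF-scr (0.04). The gene in both counts was Ndufa4. Of the independent markers, 4 of 28 (P2ry14, Steap4, Art3 and Tbx2) were called lower in HFpEF-scr against Control over all members, and 1 of 27, the parathyroid hormone receptor Pth1r, in the restricted set. That gene alone of the 27 was higher in HFpEF-FoxO1-sh than in HFpEF-scr. Of the FoxO factors and targets, 0 were higher and 3 lower of 31 in HFpEF-FoxO1-sh against HFpEF-scr over all members. In the restricted set 0 were higher and 1 lower of 27, and the lower gene was Angpt2. Of all measured genes 4.17% were lower over all members and 2.9% in the restricted set. The list's median log2 ratio was -0.18 over all members and -0.05 in the restricted set, against 0.06 and 0.02 for all genes. In HFpEF-scr against Control the list had 3 higher and 1 lower of 30 over all members, where 4.22% of all genes were higher and 4.73% lower. In the restricted set it had 0 higher and 1 lower of 28, against 2.67% and 2.85% of all genes.

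Members at the edge of the rule held less Rgs5. The barcodes with a marker sum of 4, just inside, numbered 22 in HFpEF-FoxO1-sh, 26 in HFpEF-scr and 27 in Control, and those with a sum of 3, just outside, 60 in HFpEF-FoxO1-sh, 50 in HFpEF-scr and 54 in Control. Rgs5 was at 656 CPM in HFpEF-FoxO1-sh, 1288 CPM in HFpEF-scr and 582 CPM in Control just inside and at 580.5 CPM in HFpEF-FoxO1-sh, 259.8 CPM in HFpEF-scr and 194.7 CPM in Control just outside. The median marker sum over all members was 27 in HFpEF-FoxO1-sh, 20 in HFpEF-scr and 28 in Control. In the restricted set it was 29 in HFpEF-FoxO1-sh, 24 in HFpEF-scr and 29 in Control. All 4 marker genes had a UMI in 80.7% of HFpEF-FoxO1-sh, 70.2% of HFpEF-scr and 81.4% of Control members. With a sum of at least 4 there were 1124 HFpEF-FoxO1-sh, 742 HFpEF-scr and 1266 Control barcodes, of which the rule's other parts left out 509 HFpEF-FoxO1-sh, 417 HFpEF-scr and 566 Control barcodes. Pecam1 or Cdh5 left out 238 HFpEF-FoxO1-sh, 218 HFpEF-scr and 315 Control barcodes, and Col1a1 255 HFpEF-FoxO1-sh, 167 HFpEF-scr and 217 Control barcodes.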

How the data were processed

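Droplet 3′ single-cell RNA-seq of 3 libraries was analysed. The deposited matrices hold raw UMI counts per gene (30360 genes) and barcode, which the authors produced on mm10 using Cell Ranger 6.1.2, per the submitters' processing notes; the annotation release is not given in the sources used here. The pericyte rule and the limits are given in the report. The members and the gene lists were chosen with earlier results of these data known, and the restricted set (at most 5 Dcn UMIs, 5% haemoglobin, 20 cardiomyocyte UMIs and 5 leukocyte-list UMIs) after these values were seen. Doublets marked by Scrublet (expected rate 12%) were left in, and their removal was an alternative.

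UMIs were summed per library and divided by the non-mitochondrial total, leaving out 13 mitochondrial genes. Ratios carry exact conditional binomial intervals, levels exact Poisson intervals and shares exact Clopper-Pearson intervals (95%). Log2 ratios in the lists add 1 CPM. A gene was called at a ratio of 1.5 or more with an interval excluding 1, among genes with at least 20 UMIs. Barcodes were thinned to 1000 UMIs for shares of members with a UMI. Members above and at or below 20% mitochondrial UMIs were compared with edgeR's quasi-likelihood test (TMM, library as a block, adjusted p under 0.05); DESeq2 was an alternative. The 35 lists hold 783 genes, of which 780 are in the files. Some genes of the lists are counted but not reported by name here.

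Named genes were the 10 largest called ratios in each direction with at least 50 UMIs over both libraries and a UMI in at least 20 barcodes of the higher library, up to 4 of each list, the mitochondrial range's extremes, the rule genes, the independent markers and Foxo1; other genes named to complete a list's calls were chosen after their values were seen. The scripts were tested on simulated data. Tools were edgeR 4.0.16 and DESeq2 1.42.0 in R 4.3.3, and scanpy 1.11.5, anndata 0.12.19, scipy 1.17.1, numpy 2.4.6, matplotlib 3.10.9 and pandas 2.3.3 in Python 3.11.15.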

Additional observations from a re-analysis of the deposited data

Results flagged for a closer look

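Barcodes that met every part of the pericyte rule but lay above 50% mitochondrial UMIs are outside the comparisons. They numbered 7 in HFpEF-FoxO1-sh, 25 in HFpEF-scr and 19 in Control.

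In 4 genes the ratio over all pericytes and that in smooth muscle barcodes pointed in opposite directions, and the difference between the classes was not tested. The ratio of Adcyap1r1 for HFpEF-scr over Control was 0.340 in pericytes and 2.09 in smooth muscle barcodes. For HFpEF-FoxO1-sh over HFpEF-scr the ratio of Dpt was 0.520 in pericytes and 1.81 in smooth muscle barcodes. In the same comparison Vcam1 was 0.375 in pericytes and 1.51 in smooth muscle barcodes, and Apoe was 0.524 and 1.94. In the restricted set Apoe was at 132.8 CPM in HFpEF-FoxO1-sh, 320.8 CPM in HFpEF-scr and 143.0 CPM in Control, and a single barcode held 36.8% of its UMIs in HFpEF-FoxO1-sh, 35.7% in HFpEF-scr and 23.6% in Control.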

How the results depend on the processing

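The share of pericytes was below 1 in ratio for HFpEF-scr over Control and above 1 for HFpEF-FoxO1-sh over HFpEF-scr under every setting run. It moved outside its counting interval to 0.357 with Col1a1 of 0, and to 3.64 at the 20% mitochondrial limit and 2.31 with Col1a1 of 0. For HFpEF-scr over Control, genes called higher numbered 264 with a marker sum of at least 8, 214 with Col1a1 of 0, 211 after thinning, 164 with at least 100 UMIs and 239 in the restricted set; genes called lower numbered 241 after thinning, 261 with at least 100 UMIs and 255 in the restricted set. For HFpEF-FoxO1-sh over HFpEF-scr, genes called higher numbered 960 at the 20% limit, 675 with totals over all UMIs, 199 after thinning, 188 with at least 100 UMIs and 235 in the restricted set; genes called lower numbered 222 with a marker sum of at least 8, 175 with Col1a1 of 0, 215 after thinning, 159 with at least 100 UMIs and 252 in the restricted set. Above 20% mitochondrial UMIs, genes higher and lower numbered 111 and 469 without the library block, 90 and 304 with the cut at 30%, 79 and 222 after thinning, 97 and 408 with DESeq2 and 4 and 0 in the restricted set. Leaving out a library gave 118 to 450 higher and 374 to 848 lower, both lowest without Control. For HFpEF-scr over Control there were 1021 values of 83 named genes. Of these, 895 kept their call or lack of one, 91 lost the call and 34 gained one. For HFpEF-FoxO1-sh over HFpEF-scr there were 1009 values of 82 genes. Of those, 871 kept their call or lack of one, 73 lost the call and 62 gained one. Direction was checked only for genes called over all members. Among them Ccl11 reversed for HFpEF-scr over Control at the 20% limit (-0.26, log2). For HFpEF-FoxO1-sh over HFpEF-scr Lmod1 reversed at that limit (0.29), and Id4 (0.77) and Vcan (0.23) with Col1a1 of 0. Tpm1 and Cxcl1, not called over all members in that comparison, changed direction in the restricted set and are not counted as reversed. The causes of these changes were not tested. No paired analysis between groups was possible because each group is a single library and its replicate number pairs nothing. A single library per group limits every comparison between groups to counting error.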
